A study of Drosophila melanogaster with 12 samples.

Results

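The comparison described here set the libraries labelled dENL/AF9-IR against those labelled NTC IR-1 in RNA-seq of adult Drosophila melanogaster heads, taking every library that carries either label, 6 of the 12 in the series. The groups were nSyb>dENL/AF9 IR (labelled dENL/AF9-IR) and nSyb>mCherry IR (labelled NTC IR-1), with 3 libraries each. The remaining groups, nSyb>dYEATS2 IR and nSyb>Luciferase IR (labelled NTC IR-2), also had 3 libraries each and entered the same fit. All flies were males aged 3 days by their labels, each library came from 50 heads, and every group expressed a hairpin under nSyb. The hairpins against mCherry and Luciferase have no target in the fly genome and serve as non-targeting controls. Titles of the dENL/AF9-IR and NTC IR-2 libraries add the word young, unlike titles of dYEATS2-IR and NTC IR-1. Whether the title sets were raised or sequenced apart is not given in the sources used here.

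The gene ear encodes the fly relative of mammalian ENL and AF9. These proteins carry a YEATS domain that binds acylated lysines on histone tails, and they join the super elongation complex, whose kinase releases paused RNA polymerase II. D12 encodes the fly relative of YEATS2, a YEATS-domain subunit of the ATAC histone acetyltransferase complex. The nSyb driver is active in neurons, so a hairpin was expressed in one class of cells, while RNA came from the whole head with its glia, fat body, muscle and cuticle. In such bulk samples, fewer cells of a type and less RNA per cell cannot be told apart. Nothing in the labels says that replicates came from separate crosses, so p-values measure the spread between these libraries.

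The count table held 53726938, 54132559 and 46397493 counts in the libraries labelled dENL/AF9-IR, against 33094369, 45721085 and 51881142 in those labelled NTC IR-1. Values are given as CPM, the count per 1e6 scaled counts of the library. A change was called at a false discovery rate (FDR, Benjamini-Hochberg) below 0.05 in edgeR's quasi-likelihood test over 12661 rows. Library names are exchanged between the deposited tables: in the normalized one, the dENL/AF9-IR columns are the count table's NTC IR-1 libraries, and the NTC IR-1 columns are the count table's NTC IR-2 libraries. The files do not settle which table carries the right names, so every direction below belongs to the labels of the count table.

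The targeted gene went against its label. The level of ear (FBgn0026441, arm 3R from 15320756 to 15325279 in BDGP6) was 43.3, 41.0 and 37.5 CPM in the libraries labelled dENL/AF9-IR, against 32.0, 30.8 and 33.1 CPM in those labelled NTC IR-1. The groups did not overlap, and the level was higher in the libraries labelled with the hairpin against it. The log2 fold change was 0.34 (SE 0.118), which did not pass the test (edgeR FDR = 0.0697). With libraries named as in the normalized table, ear instead gave -0.39 and was called lower (edgeR FDR = 0.0401). D12 (FBgn0027490, arm 2L from 8434058 to 8437365) had 8.26, 8.33 and 6.70 CPM in the libraries labelled dENL/AF9-IR, against 9.75, 9.45 and 7.94 CPM in those labelled NTC IR-1. These values overlapped, and the log2 difference of -0.22 did not pass (edgeR FDR = 0.291). The groups labelled dYEATS2-IR and NTC IR-2 averaged 37.6 and 42.0 CPM of ear, above all 3 libraries labelled NTC IR-1.

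**Figure D1:**
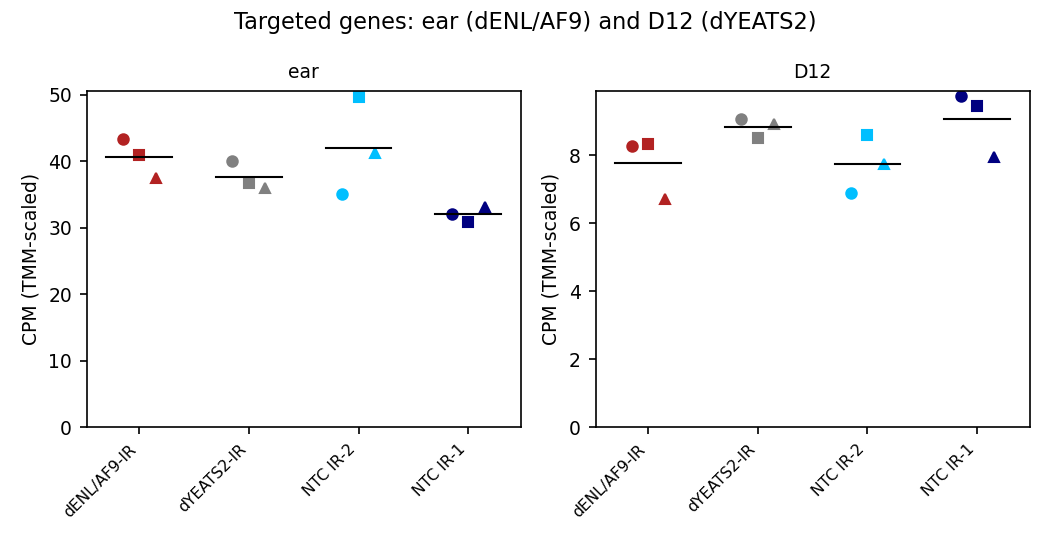
CPM of ear and D12 in each library by labelled group. Circles, squares and triangles are replicates 1, 2 and 3, and bars are means. The 3 libraries labelled dENL/AF9-IR held 37.5 to 43.3 CPM of ear, above the 30.8 to 33.1 CPM of those labelled NTC IR-1.

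Against NTC IR-1, 1974 rows were called (15.6% of those tested), 1098 higher (8.67%) and 876 lower (6.92%) in the libraries labelled dENL/AF9-IR. Of these, 139 higher rows (1.10%) and 342 lower rows (2.70%) changed at least 2-fold. The median log2 fold change over all rows was -0.04. The calls fell to 657 without dENL/AF9-IR replicate 1, to 544 without its replicate 2, to 438 without NTC IR-1 replicate 1 and to 613 without its replicate 2. They were 1831 and 2625 without replicate 3 of dENL/AF9-IR and of NTC IR-1. The counts given for gene lists depended on the same libraries and are followed by their range over the 6 fits. Against NTC IR-2, the control whose titles share the word young, no row was called by edgeR (661 at an unadjusted p under 0.05, 27 by DESeq2). NTC IR-2 against NTC IR-1, a comparison of the non-targeting controls, gave 2467 calls (19.5%). These comparisons share libraries. A called gene whose call was lost in any of the 6 fits is given with the number of fits that lost it, and the other called genes named below kept theirs in all 6.

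List medians are set side by side here for dENL/AF9-IR against NTC IR-1, then NTC IR-2 against NTC IR-1, then dENL/AF9-IR against NTC IR-2. For fat body and yolk genes they were -1.31, -1.63 and 0.01 on the log2 scale, and for digestive enzymes -0.98, -1.01 and 0.21. The list of male reproductive transcripts had -2.46, -4.76 and 0.82, and 29 of its 46 members were called lower in NTC IR-2 against NTC IR-1. Rows of ribosomal and small nuclear RNA had -2.39, -2.44 and 0.03. In each of these lists NTC IR-2 lay below NTC IR-1, as dENL/AF9-IR did. The mitochondrial genome had medians of 1.02, 1.05 and -0.03, and nuclear oxidative phosphorylation -0.23, -0.24 and 0.02. The 8 neuronal lists described below had 0.32, 0.34 and -0.02 when joined, and phototransduction genes 0.33, 0.31 and 0.03. Protein-coding genes of chromosome 4 had 0.36, 0.35 and 0.05. Here too the sign was shared by dENL/AF9-IR and NTC IR-2 when each was set against NTC IR-1. Against dYEATS2-IR, dENL/AF9-IR had medians of -2.24 for the ribosomal and small nuclear RNA rows and 1.25 for the mitochondrial genome. The joined neuronal lists had 0.24 in that comparison, fat body and yolk genes -0.18 and phototransduction genes -0.16.

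**Figure D2:**
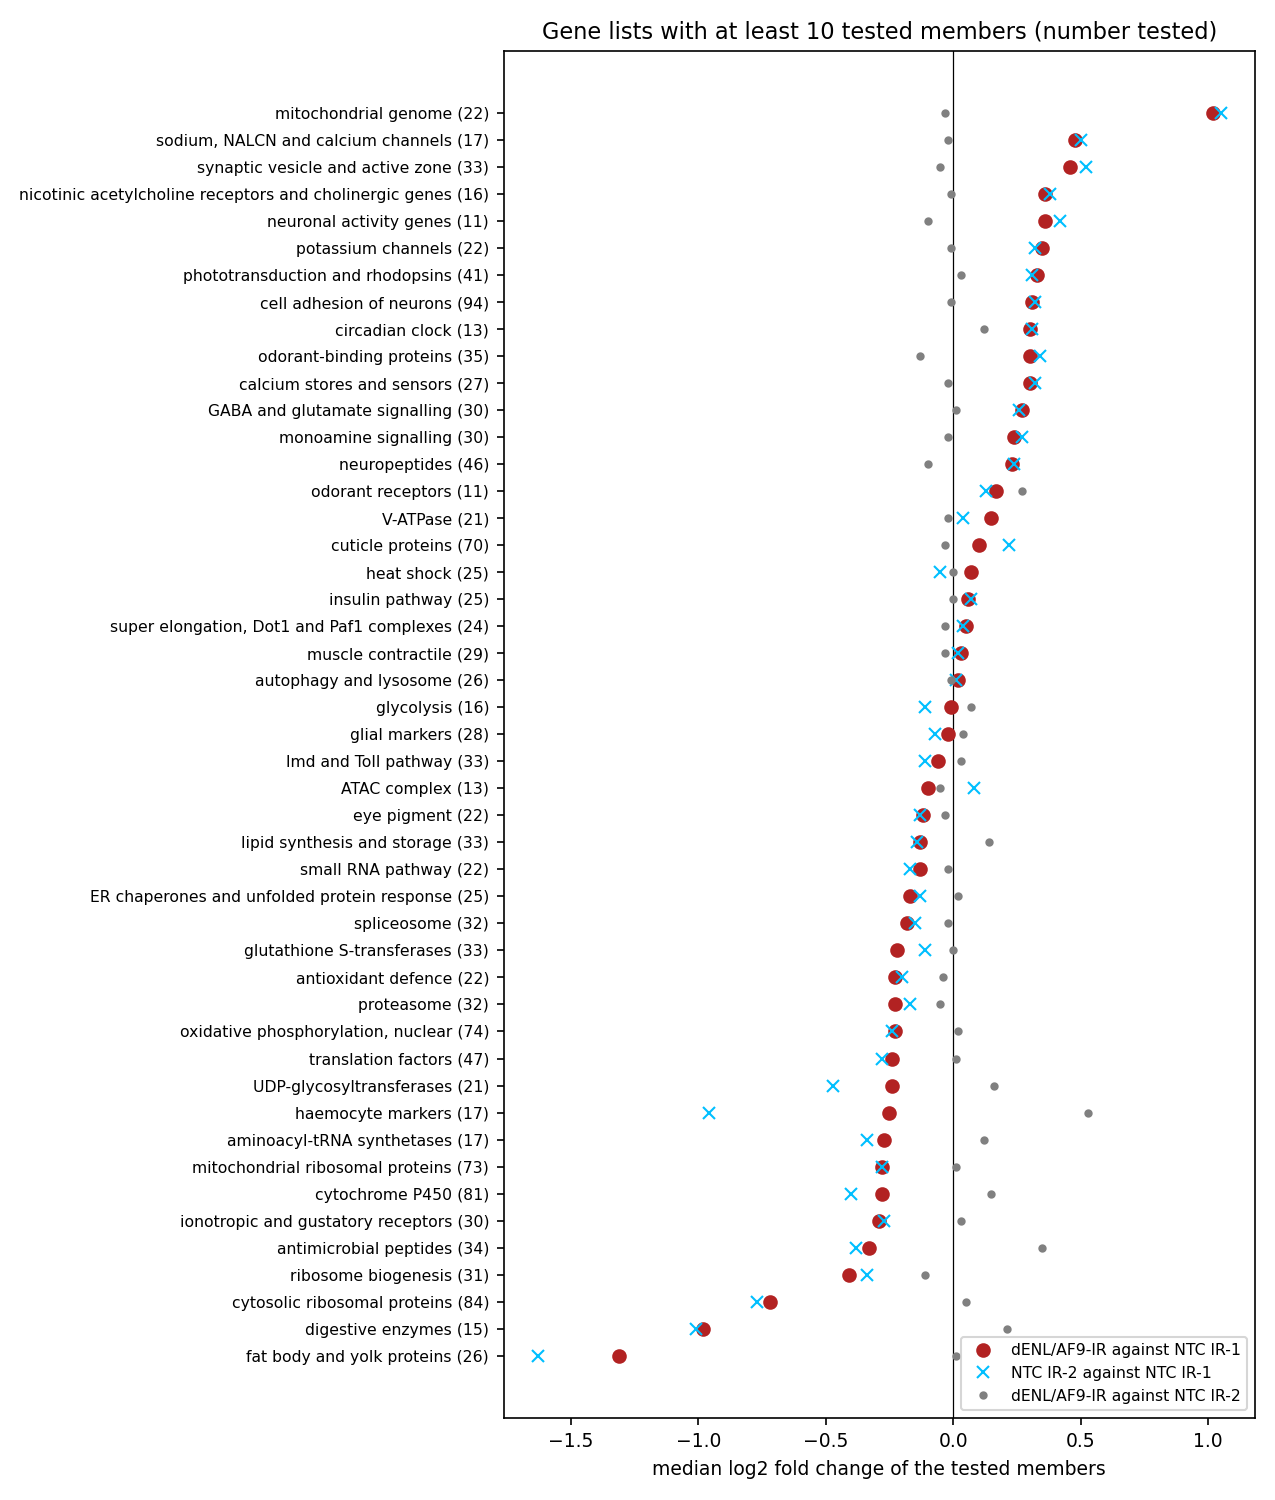
Median log2 fold change (x axis) of the tested members of gene lists, with the number tested after each name, for dENL/AF9-IR against NTC IR-1 (large points), NTC IR-2 against NTC IR-1 (crosses) and dENL/AF9-IR against NTC IR-2 (small points). For cytosolic ribosomal proteins the medians were -0.72, -0.77 and 0.05.

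The largest falls included all 3 yolk protein genes. Yp1, Yp2 and Yp3 encode the yolk polypeptides that the female fat body and ovary make for the egg. Yp1 (chromosome X from 10053811 to 10055498) was at 0, 0 and 0.114 CPM in the libraries labelled dENL/AF9-IR, against 843, 798 and 587 CPM in those labelled NTC IR-1. Yp2 had 0.830, 0.916 and 0.681 CPM in the libraries labelled dENL/AF9-IR, against 366, 318 and 216 CPM in those labelled NTC IR-1. Yp3 had 15.0, 15.3 and 24.2 CPM in the libraries labelled dENL/AF9-IR, against 674, 593 and 451 CPM in those labelled NTC IR-1. No value overlapped, and all 3 NTC IR-1 libraries were high although every label says male. The log2 fold changes were -14.29 (SE 0.719, edgeR FDR = 2.23e-06) for Yp1, which rested on 5 counts in the libraries labelled dENL/AF9-IR, -8.52 (SE 0.353, edgeR FDR = 5.01e-07) for Yp2 and -4.98 (SE 0.285, edgeR FDR = 4.55e-06) for Yp3. These 3 calls remained whichever of the 6 libraries was left out. Yp1 averaged 0.232 CPM in dYEATS2-IR and 0.248 CPM in NTC IR-2, so its high level stood in NTC IR-1 and in no other group.

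Of the other 23 fat body genes tested, 7 fell and 1 rose, with a median of -0.88 against -0.04 over all rows. None of the 7 falls was called without dENL/AF9-IR replicate 1 or 2, or without NTC IR-1 replicate 1 or 2. Lsp1alpha and Lsp1beta, subunits of a larval storage protein, fell by 3.81 and 1.90 on the log2 scale (edgeR FDR = 0.0190 and 0.0294, lost in 5 and 4 of the 6 fits). Among the libraries labelled NTC IR-1, replicate 3 had 7.32 CPM of Lsp1alpha, beside 52.2 and 54.4 CPM in replicates 1 and 2. The transcript of fit, a feeding-related peptide that female fat body makes in quantity, had 0.226, 0.299 and 1.98 CPM in the libraries labelled dENL/AF9-IR, against 5.65, 3.15 and 5.55 CPM in those labelled NTC IR-1 (log2 fold change -2.53, edgeR FDR = 0.0402, lost in 5 of the 6 fits). The 9 fat body markers include the yolk genes and summed to 787 to 1662 CPM in the libraries labelled dENL/AF9-IR, against 3067 to 3830.4 CPM in those labelled NTC IR-1. Without the yolk genes, the other 6 summed to 771 to 1637 CPM in the libraries labelled dENL/AF9-IR, against 1355 to 2577 CPM in those labelled NTC IR-1. These sums overlapped, and none of the 6 was called. The male-specific roX1 RNA of the dosage compensation complex, lncRNA:roX1, had 1613, 1667 and 1771 CPM in the libraries labelled dENL/AF9-IR, against 672, 767 and 1541 CPM in those labelled NTC IR-1. That difference did not pass (log2 0.76, edgeR FDR = 0.0600), and the part that fat body or sex of the heads has in the falls was not tested.

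Transcripts of the male reproductive tract also ranked among the largest falls, at low levels. They were gathered as a list after the largest falls were seen. Of 46 tested members 17 were called lower (37.0%, beside 6.92% of all rows) and none higher (9, 6 and 14 lower without dENL/AF9-IR replicates 1, 2 and 3, and 7, 10 and 14 without NTC IR-1 replicates 1, 2 and 3). Called or not, 40 had a negative and 6 a positive log2 fold change. The summed level of the list overlapped, at 730.4 to 886 CPM in the libraries labelled dENL/AF9-IR, against 594 to 1168 CPM in those labelled NTC IR-1. SP, the sex peptide of the accessory gland, was at 0 in all 3 libraries labelled dENL/AF9-IR, against 0.719, 0.702 and 1.58 CPM in those labelled NTC IR-1, at least 49.1-fold lower when 3 counts over the group are taken as the floor. Sfp60F, a seminal fluid protein, had 0.113, 0 and 0 CPM in the libraries labelled dENL/AF9-IR, against 1.97, 1.43 and 2.22 CPM in those labelled NTC IR-1. Met75Ca and Met75Cb, neighbouring near-identical genes, fell by 5.39 and 5.84 on the log2 scale, and reads may have been shared between them. Mst84Da, from the testis-specific Mst84D cluster, also fell. It rested on 3 counts among the dENL/AF9-IR libraries, and its level in NTC IR-1 over that in dENL/AF9-IR was 86.2 (95% counting interval 29.5 to 418). Yolk genes and the male transcripts called here were both higher in the libraries labelled NTC IR-1.

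Digestive enzymes and transcripts of ribosomal RNA were the next groups of large falls. Amy-d, an alpha-amylase, had 0.830, 1.04 and 2.86 CPM in the libraries labelled dENL/AF9-IR, against 26.3, 26.1 and 19.1 CPM in those labelled NTC IR-1 (log2 fold change -3.93, SE 0.719, edgeR FDR = 0.00719), and it shares reads with its copy Amy-p. Of 15 digestive enzymes tested, 5 fell and none rose, with a median of -0.98 (3 to 6 in the 6 fits). Of 29 tested rows of ribosomal and small nuclear RNA, also gathered after the falls were seen, 17 fell and none rose, with a median of -2.39 (9 to 15 in the 6 fits, with 9 and 10 without dENL/AF9-IR replicates 1 and 2). Their summed level was 657 to 891 CPM in the libraries labelled dENL/AF9-IR, against 3509 to 6058 CPM in those labelled NTC IR-1, and the groups did not overlap. NTC IR-2 had 397 to 1133 CPM and dYEATS2-IR 2321 to 8066 CPM, so the groups whose titles add the word young held the lower levels. Of the 20 ribosomal rows, which are copies and pseudogenes of 1 repeated unit and so uncertain as single rows, 14 fell with a median of -2.61. Of the 9 small nuclear RNA rows, 3 fell with a median of -1.25. The libraries were made by poly(A) selection, which removes most ribosomal RNA; the part that selection has in this difference was not tested.

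Genes of the cytosolic ribosome fell together. Of 84 ribosomal protein genes tested, 68 fell and none rose, and the median log2 fold change was -0.72 against -0.04 over all rows. In 82 of the 84 the libraries labelled dENL/AF9-IR lay below all 3 labelled NTC IR-1, where 19.0% of all rows did so. RpS9, a protein of the small subunit, had 199.7, 177 and 246 CPM in the libraries labelled dENL/AF9-IR, against 511, 471 and 480.1 CPM in those labelled NTC IR-1. The log2 fold change of RpS9 was -1.23 (SE 0.185, edgeR FDR = 0.00388), and RpS21, of the same subunit, fell by 1.19 (SE 0.190, edgeR FDR = 0.00466). Summed over the list, ribosomal protein transcripts made 21855 to 28679 CPM in the libraries labelled dENL/AF9-IR, against 38093 to 41514 CPM in those labelled NTC IR-1. NTC IR-2 spanned 19117 to 29133 CPM. Replicate 3 of dENL/AF9-IR was the nearest to NTC IR-1, with a median log2 level of -0.47 against the NTC IR-1 mean, where replicates 1 and 2 had -0.82 and -0.88. The count of falls was 23, 19 and 75 without dENL/AF9-IR replicates 1, 2 and 3, and 24, 41 and 55 without NTC IR-1 replicates 1, 2 and 3.

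Other genes of protein synthesis moved less. Of 31 ribosome biogenesis genes, 5 fell and none rose (median -0.41), but none was called without replicate 1 or 2 of either group, and 17 without NTC IR-1 replicate 3. Among them eIF6, which keeps the ribosomal subunits apart, fell by 0.81 (edgeR FDR = 0.0214, lost in 4 of the 6 fits). Of 73 mitochondrial ribosomal proteins, 12 fell and 1 rose (median -0.28; 3 to 18 fell in the 6 fits, with 3, 4 and 18 without NTC IR-1 replicates 1, 2 and 3, and 4, 4 and 8 without dENL/AF9-IR replicates 1, 2 and 3). mRpL27, of the large mitochondrial subunit, had 15.5, 14.2 and 15.0 CPM in the libraries labelled dENL/AF9-IR, against 28.5, 24.1 and 25.0 CPM in those labelled NTC IR-1 (log2 fold change -0.80, SE 0.137, edgeR FDR = 0.00585). Of 47 translation factors 8 fell (17.0%, beside 6.92% of all rows) and 4 rose (8.51%, beside 8.67%), so the share of rises was close to that of all rows. In the 6 fits 0 to 11 fell, the lowest without replicate 1 or 2 of dENL/AF9-IR or replicate 1 of NTC IR-1. Among the rises, eIF4EHP, a cap-binding repressor of translation, was 471, 446 and 358 CPM in the libraries labelled dENL/AF9-IR, against 222, 246 and 282 CPM in those labelled NTC IR-1 (log2 fold change 0.77, edgeR FDR = 0.00619). Of 17 aminoacyl-tRNA synthetases 3 fell and none rose (0 to 8 in the 6 fits, with 0 without dENL/AF9-IR replicate 2 and 8 without NTC IR-1 replicate 3). Of 32 proteasome genes none was called by edgeR (1 at an unadjusted p under 0.05, 0 by DESeq2), with a median of -0.23.

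**Figure D3:**
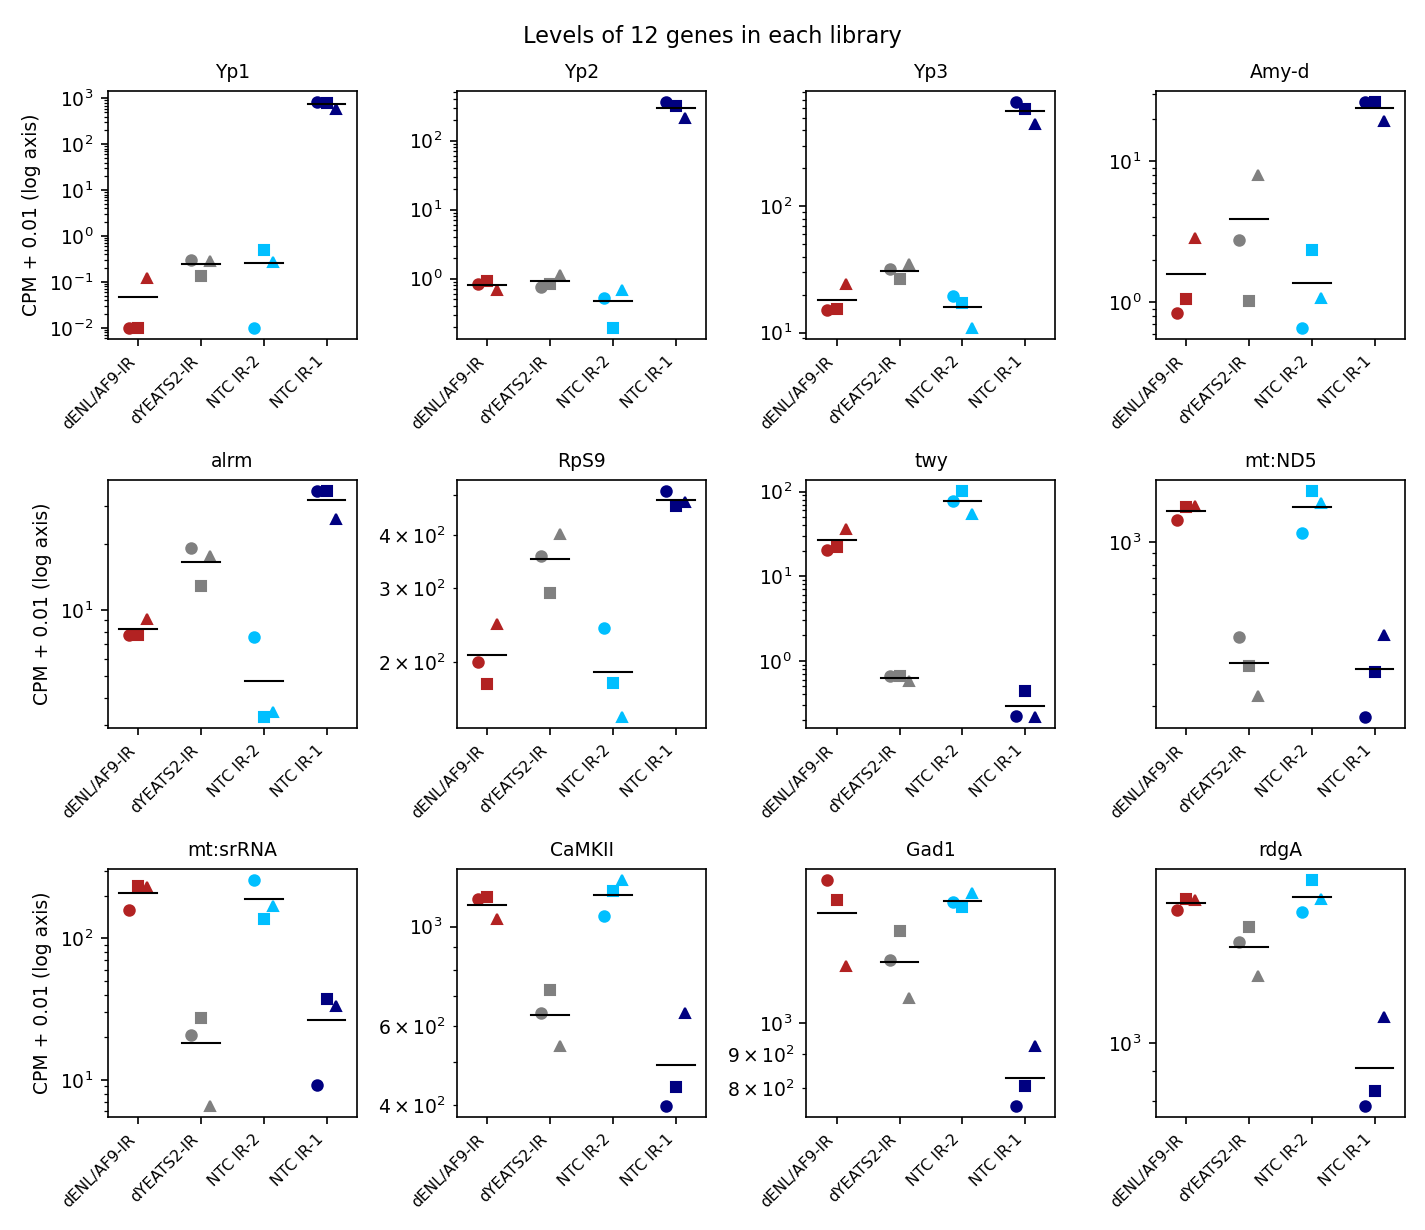
CPM plus 0.01 on log axes for 12 genes in each library, by labelled group. Circles, squares and triangles are replicates 1, 2 and 3, and bars are means. For Yp1 the libraries labelled NTC IR-1 stood at 587 to 843 CPM and all others near 0, and for twy dENL/AF9-IR and NTC IR-2 stood high.

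List medians of the mitochondrial genome and of nuclear oxidative phosphorylation differed in sign, while the summed level of each list overlapped between the groups. Of 22 tested rows of the mitochondrial genome, 9 rose (40.9%, beside 8.67% of all rows) and 2 fell, with a median of 1.02. Of 74 nuclear genes of oxidative phosphorylation 8 fell (10.8%, beside 6.92% of all rows) and none rose, with a median of -0.23. The small mitochondrial ribosomal RNA, mt:srRNA, had 158, 234 and 232 CPM in the libraries labelled dENL/AF9-IR, against 9.16, 37.3 and 33.3 CPM in those labelled NTC IR-1 (log2 fold change 2.97, SE 0.563, edgeR FDR = 0.00826). mt:ND5, a subunit of complex I, had 1240.3, 1412 and 1426 CPM in the libraries labelled dENL/AF9-IR, against 179, 279 and 399 CPM in those labelled NTC IR-1 (log2 fold change 2.25, SE 0.288, edgeR FDR = 0.00247). All dENL/AF9-IR values lay above all NTC IR-1 values for both. mt:ATPase6, of ATP synthase, had 3659, 4053 and 4988 CPM in the libraries labelled dENL/AF9-IR, against 631, 604 and 1712 CPM in those labelled NTC IR-1 (log2 fold change 2.11, edgeR FDR = 0.00667). Replicate 3 was the highest of the NTC IR-1 libraries for this gene. The 2 that fell, mt:ATPase8 and mt:ND2, were at 2.51 to 6.43 CPM in the libraries labelled dENL/AF9-IR, against 5.62 to 31.1 CPM in those labelled NTC IR-1, and their calls were lost in 3 and 5 of the 6 fits. The large ribosomal RNA, mt:lrRNA, took 21.4% to 26.2% of counts in dENL/AF9-IR and 25.1% to 31.7% in NTC IR-1, and it did not pass (log2 -0.24, edgeR FDR = 0.524). The count of rises was 6, 4 and 8 without dENL/AF9-IR replicates 1, 2 and 3, and 4, 3 and 12 without NTC IR-1 replicates 1, 2 and 3. UQCR-11, a nuclear subunit of complex III, fell by 0.71 (SE 0.149, edgeR FDR = 0.0122, lost in 1 of the 6 fits), and the nuclear falls numbered 0 to 4 in the 6 fits.

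Many genes of neuronal signalling were higher. Over 8 such lists joined, a union formed with the results known, 106 of 265 tested genes rose and 1 fell. The count was 47, 42 and 117 without dENL/AF9-IR replicates 1, 2 and 3, and 26, 36 and 114 without NTC IR-1 replicates 1, 2 and 3. The union made 72618 to 80147 CPM in the libraries labelled dENL/AF9-IR, against 48619 to 58101 CPM in those labelled NTC IR-1, and 69820.3 to 83915 CPM in NTC IR-2. The single fall was Gat, a GABA transporter of glia, with 46.0, 43.5 and 51.4 CPM in the libraries labelled dENL/AF9-IR, against 68.2, 76.5 and 86.5 CPM in those labelled NTC IR-1 (log2 fold change -0.72, edgeR FDR = 0.0163, lost in 3 of the 6 fits).

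The release machinery of the synapse was one such list. Of 33 synaptic vesicle and active zone genes, 18 rose and none fell (median 0.46; 5 to 19 in the 6 fits, with 5 without NTC IR-1 replicate 1, 8 without its replicate 2, and 10 and 8 without dENL/AF9-IR replicates 1 and 2). Snap25, a membrane SNARE of the presynaptic terminal, had 977, 1035 and 877 CPM in the libraries labelled dENL/AF9-IR, against 294, 358 and 563 CPM in those labelled NTC IR-1 (log2 fold change 1.25, SE 0.206, edgeR FDR = 0.00509). The vesicle SNARE nSyb, whose promoter drives the hairpins, had 2110.2, 2182 and 2019.6 CPM in the libraries labelled dENL/AF9-IR, against 1279.7, 1316 and 1399.9 CPM in those labelled NTC IR-1 (log2 fold change 0.66, SE 0.0874, edgeR FDR = 0.00269). Neither gene overlapped between the groups. The complexin cpx, a clamp on SNARE fusion, rose by 1.28 (edgeR FDR = 0.00683), the calcium sensor Syt1 by 0.66 (edgeR FDR = 0.0126) and the active zone scaffold brp by 0.60 (edgeR FDR = 0.0240). The calls of Syt1 and brp were each lost in 4 of the 6 fits.

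Calcium handling genes were called in one direction. Of 27 genes of calcium stores and sensors, 14 rose and none fell, with a median of 0.30 (5 to 15 in the 6 fits, with 5 without NTC IR-1 replicate 1, 6 without its replicate 2, and 8 and 7 without dENL/AF9-IR replicates 1 and 2). CaMKII, the calcium/calmodulin-dependent kinase of the synapse, had 1155, 1166 and 1040.1 CPM in the libraries labelled dENL/AF9-IR, against 399, 439 and 642 CPM in those labelled NTC IR-1 (log2 fold change 1.18, SE 0.173, edgeR FDR = 0.00358). The frequenin Frq2, a calcium sensor of the terminal, rose by 0.88 (SE 0.135, edgeR FDR = 0.00428), its gene overlapping Andorra and Hesr. MCU, the pore of the mitochondrial calcium uniporter, rose by 0.60 (edgeR FDR = 0.00589), and the plasma membrane pump PMCA by 0.56 (edgeR FDR = 0.0105, lost in 2 of the 6 fits). Calmodulin, Cam, rose by 0.69 (edgeR FDR = 0.00428).

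Some membrane channel genes rose. Of 17 sodium, NALCN and calcium channel genes 7 rose and none fell (median 0.48; 2 to 8 in the 6 fits), and of 22 potassium channel genes 9 rose and none fell (median 0.35; 3 to 8). stol, a calcium channel alpha2delta subunit, had 289, 281 and 246 CPM in the libraries labelled dENL/AF9-IR, against 124, 132 and 163 CPM in those labelled NTC IR-1 (log2 fold change 0.96, SE 0.136, edgeR FDR = 0.00318). qvr, the sleep gene sleepless that modulates Shaker channels, had 1092, 1101 and 1126 CPM in the libraries labelled dENL/AF9-IR, against 577, 591 and 711 CPM in those labelled NTC IR-1 (log2 fold change 0.82, edgeR FDR = 0.00572). Neither overlapped between the groups. The sodium channel para did not pass (log2 1.12, SE 0.476, edgeR FDR = 0.129), with NTC IR-1 replicate 1 at 81.7 CPM beside 292 and 346 CPM in replicates 2 and 3. Without NTC IR-1 replicate 1, 2 sodium and calcium channel genes and 3 potassium channel genes were called, and without its replicate 2 they numbered 3 and 3. Without dENL/AF9-IR replicate 1 they numbered 3 and 5, and without its replicate 2 they numbered 3 and 4.

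Transmitter and adhesion lists also held more rises than falls. Of 30 GABA and glutamate genes, 9 rose and 1 fell (3 to 11 rose in the 6 fits, with 3 without NTC IR-1 replicate 1, 4 without its replicate 2, and 5 and 4 without dENL/AF9-IR replicates 1 and 2). Gad1, which makes GABA, had 1635, 1525 and 1218 CPM in the libraries labelled dENL/AF9-IR, against 753, 806 and 925 CPM in those labelled NTC IR-1 (log2 fold change 0.82, SE 0.130, edgeR FDR = 0.00466). Rdl, a GABA-gated chloride channel, rose by 0.90 (edgeR FDR = 0.00802, lost in 1 of the 6 fits) and Eaat2, a transporter of acidic amino acids, by 0.87 (edgeR FDR = 0.00483). Of 16 nicotinic receptor and cholinergic genes 6 rose and none fell, but none was called without NTC IR-1 replicate 1 and 1 without its replicate 2, and 2 without dENL/AF9-IR replicate 1 or 2. Of 30 monoamine genes 5 rose and none fell (2 to 9 in the 6 fits), among them DopEcR, a receptor for dopamine and ecdysteroids, at 596, 562 and 620.1 CPM in the libraries labelled dENL/AF9-IR, against 344, 344 and 351 CPM in those labelled NTC IR-1 (log2 fold change 0.77, SE 0.134, edgeR FDR = 0.00589). Of 94 adhesion genes 40 rose and none fell, with a median of 0.31. dpr8, an immunoglobulin protein of synaptic partner matching, rose by 0.65 (SE 0.0961, edgeR FDR = 0.00359). The adhesion count was 11, 12 and 44 without dENL/AF9-IR replicates 1, 2 and 3, and 6, 9 and 43 without NTC IR-1 replicates 1, 2 and 3.

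Some neuropeptide and activity genes also rose. Of 46 neuropeptide genes 7 rose (15.2%, beside 8.67% of all rows) and 1 fell (2.17%, beside 6.92%), with a median of 0.23. In the 6 fits 1 to 6 rose, with 1 without NTC IR-1 replicate 1. Proc, which encodes proctolin, had 183, 181 and 166 CPM in the libraries labelled dENL/AF9-IR, against 103, 113 and 82.6 CPM in those labelled NTC IR-1 (log2 fold change 0.83, SE 0.156, edgeR FDR = 0.00804). Of 11 activity genes 3 rose and none fell (0 without NTC IR-1 replicate 1 or 2), among them CG14186 at 251, 254 and 367 CPM in the libraries labelled dENL/AF9-IR, against 122, 117 and 116 CPM in those labelled NTC IR-1 (log2 fold change 1.30, edgeR FDR = 0.0134, lost in 2 of the 6 fits).

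Some phototransduction genes rose, and more glial genes were called lower than higher in the fit reported. Of 41 phototransduction and rhodopsin genes 13 rose and 2 fell, with a median of 0.33. Their summed level overlapped between the groups. The count of rises was 8, 8 and 10 without dENL/AF9-IR replicates 1, 2 and 3, and 2, 2 and 18 without NTC IR-1 replicates 1, 2 and 3. rdgA, the diacylglycerol kinase of the phototransduction cascade, had 1663, 1736 and 1729 CPM in the libraries labelled dENL/AF9-IR, against 787, 834 and 1106 CPM in those labelled NTC IR-1 (log2 fold change 0.91, SE 0.130, edgeR FDR = 0.00341). norpA, the phospholipase C of the cascade, rose by 0.80 (edgeR FDR = 0.0109, lost in 2 of the 6 fits). Rh2, the rhodopsin of the ocelli, fell by 1.54 (SE 0.375, edgeR FDR = 0.0213, lost in 4 of the 6 fits). Of 28 glial genes 6 fell (21.4%, beside 6.92% of all rows) and 2 rose (7.14%, beside 8.67%), with a median of -0.02. In the 6 fits 2 to 6 fell and 0 to 6 rose. alrm, an astrocyte marker, had 7.72, 7.69 and 9.08 CPM in the libraries labelled dENL/AF9-IR, against 34.9, 35.0 and 25.9 CPM in those labelled NTC IR-1 (log2 fold change -1.97, SE 0.289, edgeR FDR = 0.00359), while Glut1, a glucose transporter, rose by 0.55 (edgeR FDR = 0.0397, lost in 4 of the 6 fits).

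Summed markers of neurons and of epidermis and cuticle were separate between the groups. Those of photoreceptors, glia, muscle and hemocytes overlapped. The 7 neuron markers made 6099 to 7118 CPM in the libraries labelled dENL/AF9-IR, against 3749 to 4639 CPM in those labelled NTC IR-1, with 4 of 7 called higher and none at 0. The markers elav, para and cac were not called (edgeR FDR = 0.210, 0.129 and 0.0593). The 10 photoreceptor markers made 39275 to 58128 CPM in the libraries labelled dENL/AF9-IR, against 28143 to 42239.7 CPM in those labelled NTC IR-1, ranges that overlap, and 3 were called higher. The 10 glial markers (1641 to 1712 CPM, against 1293 to 1761 CPM in NTC IR-1) overlapped as well. Of these, 4 were called lower (repo, wrapper, alrm and Gat) and 0 higher. The rest were not called and did not share 1 direction. Gs2, Eaat1, nrv2 and Indy had log2 fold changes of 0.44, 0.34, 0.21 and 0.13, moody had 0.00 and e had -0.36. Gs2 did not overlap between the groups (edgeR FDR = 0.123). The marker repo fell by 0.59 (edgeR FDR = 0.0184, lost in 3 of the 6 fits). Its dENL/AF9-IR values lay below those of all 9 other libraries. The 8 muscle markers (6328 to 7959 CPM, against 6514 to 9405 CPM in NTC IR-1) overlapped too, with none called. So did the 8 hemocyte markers (323 to 380.1 CPM, against 343 to 367 CPM in NTC IR-1), with none called. The 6 epidermis and cuticle markers (237 to 292 CPM, against 377 to 401 CPM in NTC IR-1) did not overlap, with 1 called lower. That gene was y, with a log2 fold change of -1.95 (edgeR FDR = 0.00428). It had 31.7, 33.3 and 67.0 CPM in the libraries labelled dENL/AF9-IR, against 180.1, 188 and 142 CPM in those labelled NTC IR-1. The other tested markers of this class, e, ple, Cpr49Aa and Vajk1, each overlapped between the groups, so y alone was separate. The level of y averaged 173 CPM in NTC IR-2 and 0.323 CPM in dYEATS2-IR. Against NTC IR-2, y had -1.98 in dENL/AF9-IR, which was not called (edgeR FDR = 0.118). None of the neuron or photoreceptor markers was at 0 over the libraries of either group. The part that cell composition has in the neuronal rises and the ribosomal falls was not tested.

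**Figure D4:**
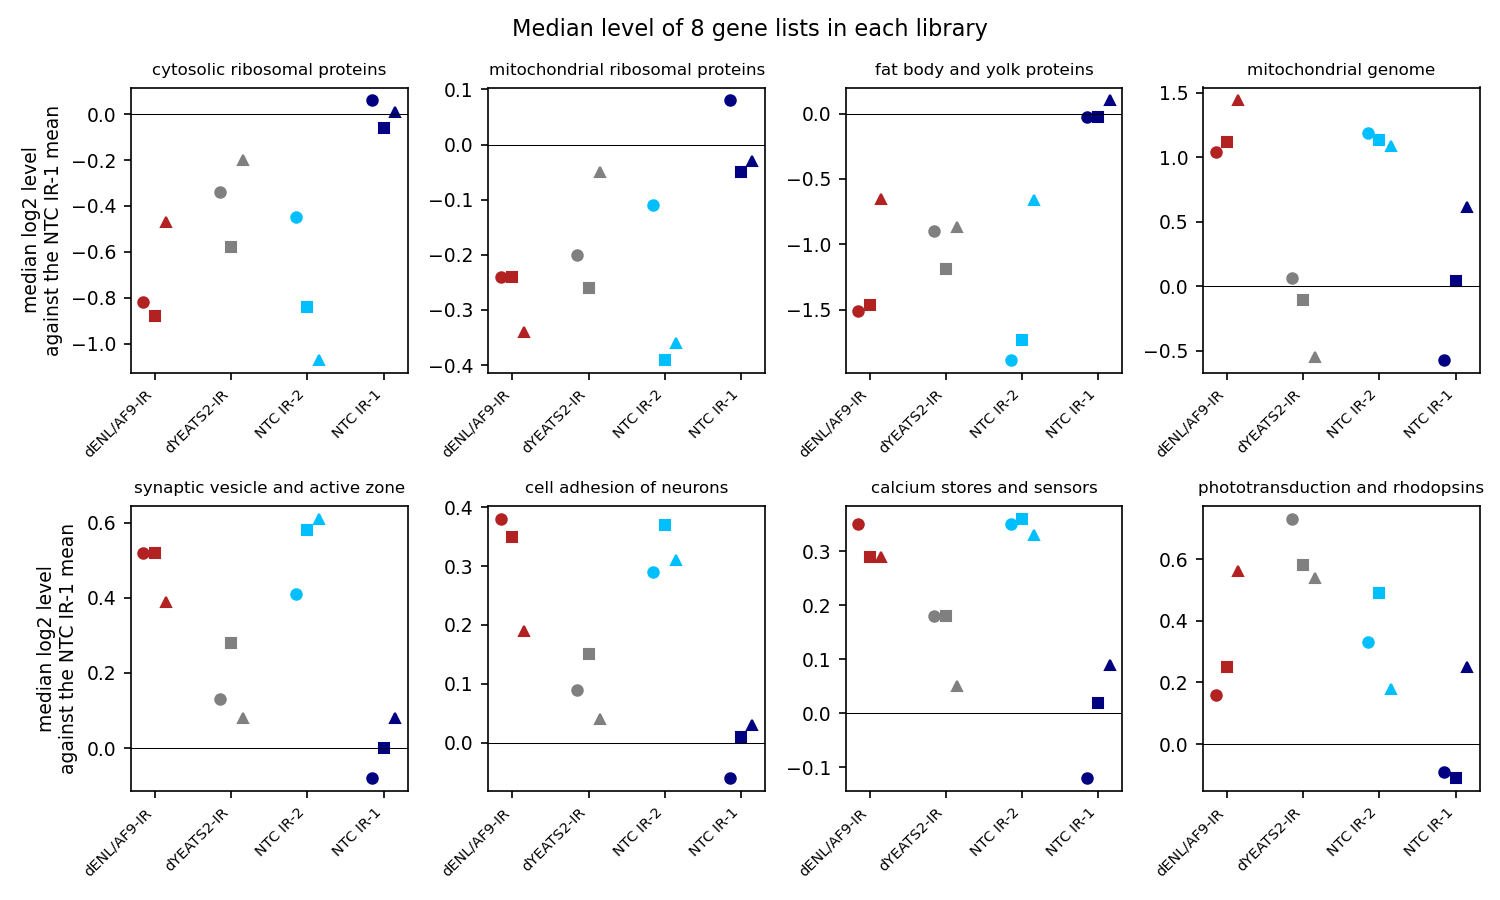
Median log2 level of 8 gene lists in each library against the mean of NTC IR-1 (y axis), by labelled group. Circles, squares and triangles are replicates 1, 2 and 3. For cytosolic ribosomal proteins dENL/AF9-IR replicates 1 to 3 had -0.82, -0.88 and -0.47, below the NTC IR-1 libraries near 0.

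Of the 10 largest rises with no overlap between the libraries, insertions and antisense RNA left out, 5 were of the mitochondrial genome and 5 of single nuclear genes. twy had 20.5, 22.4 and 36.4 CPM in the libraries labelled dENL/AF9-IR, against 0.213, 0.425 and 0.208 CPM in those labelled NTC IR-1 (log2 fold change 6.52, SE 0.372, edgeR FDR = 4.55e-06). NTC IR-2 averaged 77.3 CPM and dYEATS2-IR 0.618 CPM of this gene. Cyp4p2, a cytochrome P450, had 7.38, 7.75 and 15.1 CPM in the libraries labelled dENL/AF9-IR, against 1.73, 2.02 and 2.06 CPM in those labelled NTC IR-1 (log2 fold change 2.37, SE 0.261, edgeR FDR = 0.00112). Its neighbour Cyp4p1 moved the other way, by -1.02 (SE 0.161, edgeR FDR = 0.00443), and both overlap hig on the other strand. CG15824, which overlaps ninaA, had 6.94, 10.8 and 27.0 CPM in the libraries labelled dENL/AF9-IR, against 0.586, 1.32 and 1.71 CPM in those labelled NTC IR-1 (log2 fold change 3.61, edgeR FDR = 0.00397). These 4 calls remained whichever of the 6 libraries was left out. The other nuclear rises were CG16995 with 3.11 and CG13026 with 2.65 on the log2 scale (edgeR FDR = 0.0253 and 0.0183, lost in 5 and 4 of the 6 fits). Of 81 P450 genes in all, 10 fell (12.3%, beside 6.92% of all rows) and 4 rose (4.94%, beside 8.67%), with a median of -0.28. The falls numbered 4, 5 and 13 without dENL/AF9-IR replicates 1, 2 and 3, and 4, 4 and 8 without NTC IR-1 replicates 1, 2 and 3. v, the tryptophan dioxygenase of brown eye pigment, had 3.49, 3.61 and 8.11 CPM in the libraries labelled dENL/AF9-IR, against 16.9, 19.6 and 23.3 CPM in those labelled NTC IR-1 (log2 fold change -1.98, edgeR FDR = 0.0143, lost in 2 of the 6 fits).

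The share of known partners of the targeted protein that rose was close to that of all rows. Of 24 subunits and partners of the super elongation complex, Dot1 and Paf1, 2 rose (8.33%, beside 8.67% of all rows) and none fell, with a median of 0.05. Eaf, a partner of the elongation factor ELL, had 66.7, 66.6 and 64.2 CPM in the libraries labelled dENL/AF9-IR, against 48.6, 47.8 and 48.1 CPM in those labelled NTC IR-1 (log2 fold change 0.45, SE 0.0961, edgeR FDR = 0.0129). Su(Tpl), which encodes ELL, rose by 0.54 (SE 0.138, edgeR FDR = 0.0243). Both calls were lost without replicate 1 or 2 of either group. CycT, the cyclin of the complex, had a difference of 0.39 (edgeR FDR = 0.0837), lilli, its scaffold, 0.33 (edgeR FDR = 0.0926), and the Dot1 methyltransferase gpp 0.16 (edgeR FDR = 0.237). None of 13 ATAC genes was called by edgeR (2 at an unadjusted p under 0.05, 1 by DESeq2). Of 34 antimicrobial peptide genes 2 fell (5.88%, beside 6.92% of all rows) and none rose (9 fell without dENL/AF9-IR replicate 3). Of 25 heat shock genes 1 rose, a share below the 8.67% of all rows. Neither share exceeded that of all rows in the fit reported.

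Calls for dENL/AF9-IR against NTC IR-1 differed with exon length. When rows were split into 5 equal classes by exon length, the shortest class (median 691 bases) held 47 higher and 278 lower calls, and its median was -0.24 on the log2 scale. The longest class (median 6383 bases) held 527 higher and 74 lower calls, and its median was 0.23. NTC IR-2 against NTC IR-1, the comparison of the non-targeting controls, had -0.22 in the shortest class and 0.24 in the longest. For dENL/AF9-IR against NTC IR-2 the median was -0.01 in both classes. The median exon length was 916 bases over the ribosomal protein genes and 4784 bases over the joined neuronal lists. After the trend on exon length was removed, the medians were -0.55 for cytosolic ribosomal proteins, 0.25 for synaptic genes, 0.28 for calcium genes, 0.12 for adhesion genes, 0.06 for nicotinic genes, -0.09 for mitochondrial ribosomal proteins and -0.08 for nuclear oxidative phosphorylation. The joined neuronal lists had 0.14 in place of 0.32, and potassium channel genes 0.11 in place of 0.35. Sodium, NALCN and calcium channel genes had 0.23 in place of 0.48. GABA and glutamate genes had 0.13 in place of 0.27, and monoamine genes 0.05 in place of 0.24. Phototransduction genes stayed at 0.33. Length and function were not separated by any other test.

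Chromosome 4 held a larger share of rises. This small chromosome is largely heterochromatic and carries few genes. Of 78 protein-coding genes tested there, 33 were higher (42.3%) and 1 lower in the libraries labelled dENL/AF9-IR, against 947 higher (9.13%) and 725 lower of 10371 on the other chromosomes. The medians were 0.36 on chromosome 4 and -0.05 elsewhere, and 0.21 and -0.04 after the length trend was removed. Over all 275 tested rows of the chromosome 53 were higher and 4 lower. The count of higher rows was 23, 22 and 45 without dENL/AF9-IR replicates 1, 2 and 3, and 13, 18 and 61 without NTC IR-1 replicates 1, 2 and 3. CG11360 had 181, 181 and 185 CPM in the libraries labelled dENL/AF9-IR, against 72.5, 77.2 and 103 CPM in those labelled NTC IR-1 (log2 fold change 1.12, SE 0.140, edgeR FDR = 0.00225). toy, a Pax6 factor of eye development, had 213, 217 and 191 CPM in the libraries labelled dENL/AF9-IR, against 128, 135 and 138 CPM in those labelled NTC IR-1 (log2 fold change 0.63, SE 0.0832, edgeR FDR = 0.00269). CaMKII, above, and mGluR, a glutamate receptor that rose by 0.79 (edgeR FDR = 0.00488), lie there too, and these 4 calls remained whichever of the 6 libraries was left out.

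**Figure D5:**
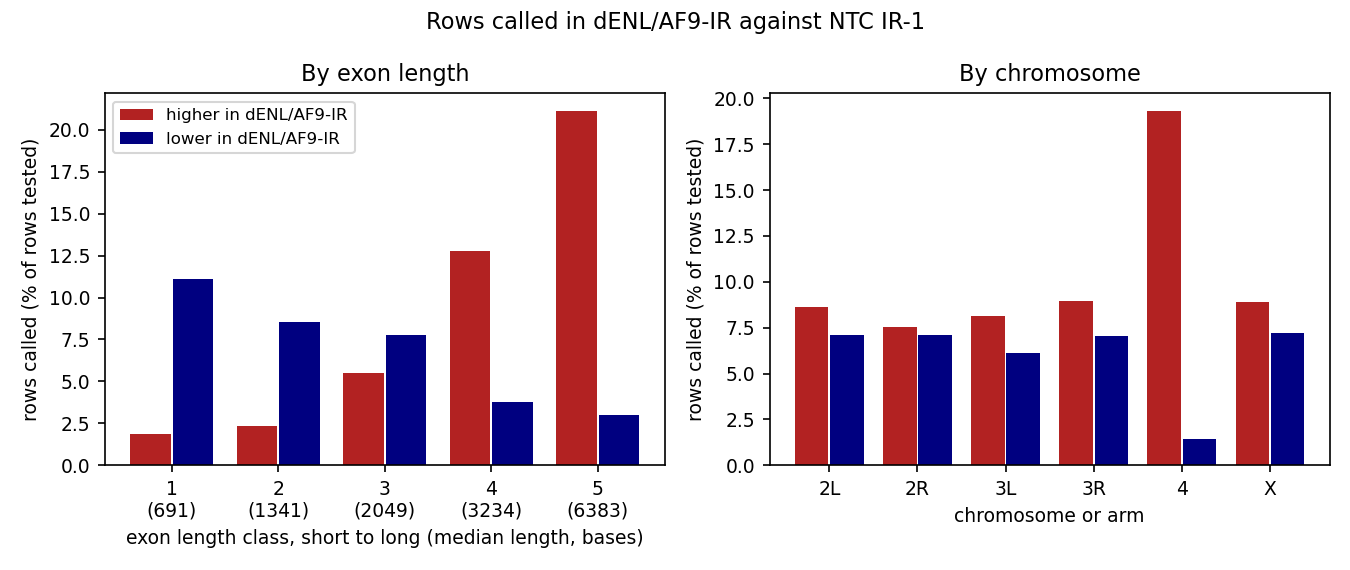
Share of tested rows called higher or lower in dENL/AF9-IR against NTC IR-1 (y axis, % of rows), by exon length class from short to long (left, with the median length in bases) and by chromosome or arm (right). Higher calls were 1.88% of the shortest class and 21.1% of the longest, and 19.3% of rows on chromosome 4.

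Set against the mean of the other 3 groups, 73 rows were called (0.577%), 50 higher (0.395%) and 23 lower (0.182%). In 57 of them the 3 dENL/AF9-IR values did not lie outside those of all 9 other libraries. An example is w, the eye pigment transporter used as a transgene marker, at 31.0 CPM in the libraries labelled dENL/AF9-IR, against 3746 in dYEATS2-IR, 33.6 in NTC IR-2 and 42.5 in NTC IR-1. In 16 of the 73 all 3 dENL/AF9-IR values lay outside those of all 9 other libraries, 10 higher and 6 lower, where over all tested rows 0.719% lay above and 0.498% below. The 73 rows were called against those same 9 libraries, so a larger share among them follows from the choice of rows and is no separate result. CG14132 averaged 56.7 CPM in the libraries labelled dENL/AF9-IR, against 34.8 in dYEATS2-IR, 36.3 in NTC IR-2 and 21.8 in NTC IR-1 (log2 0.91, edgeR FDR = 0.0411). CG9760 averaged 26.7 CPM in the libraries labelled dENL/AF9-IR, against 13.5, 19.0 and 12.9 in those groups (log2 0.84, edgeR FDR = 0.0113), and CG7296 averaged 12.9 CPM, against 23.3, 24.1 and 28.3 (log2 -0.96, edgeR FDR = 0.0439). Of the fits that left out each of the 12 libraries, 9 lost the call of CG14132, 2 that of CG9760 and 9 that of CG7296. The count ranged from 7 to 441 when single libraries were left out, with 7 without dENL/AF9-IR replicate 2 and 441 without NTC IR-1 replicate 3.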

How the data were processed

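Total RNA of whole heads was sequenced after poly(A) library preparation with the TruSeq Stranded mRNA kit, per the labels' protocols. Raw counts per gene and per transposable element insertion were deposited for all 12 libraries, 23793 rows, of which 5876 were insertions. A second table, also deposited by the authors, holds the counts divided by 1 constant per library, a signal used here only to compare library names. Trim Galore 0.6.5, FastQC 0.12.0, HISAT2, SAMtools, UMI-tools, Picard, DESeq2 and the builds BDGP6 and dm6 are named per the submitters' processing notes. How strand was used in counting is not given in the sources used here.

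Counts were fitted with edgeR 4.0.16 (R 4.3.3; filterByExpr, TMM, 4 group means, 12661 rows kept), and quasi-likelihood F tests were adjusted by Benjamini-Hochberg over all rows; SE is the log2 fold change divided by the root of F. CPM are counts per 1e6 TMM-scaled counts. The script recovered known changes in simulated data, which had the same spread in every row and no outlying library. Only changes of at least 2-fold in rows of higher counts were simulated, so smaller changes were not covered. Named genes are both targets, the 10 largest rises and falls with no overlap between the 6 libraries (mean count of at least 50 in 1 group), the 2 called members of lowest FDR per direction in each list and the top 5 of the contrast against the other groups; further genes were chosen after their values were seen. Members and lists were chosen with earlier results of these data known. DESeq2 1.42.0, RLE scaling, other filters, a replicate block, 6-library fits and fits leaving out each library were tried. Gene coordinates and exon lengths were taken from the Ensembl annotation of the same build. Promoter motifs were not analysed here.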

Additional observations from a re-analysis of the deposited data

How the results depend on the processing

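Calls against NTC IR-1 were 1310 with no filter on low counts, against 1974 in the fit reported, and between 438 and 2625 when single libraries were left out. With NTC IR-2 as the control 0 were called. The replicate numbers did not pair the libraries: same-numbered libraries correlated at 0.0234, 0.0534 and 0.0716, and dENL/AF9-IR replicates 2 and 3 correlated best with their own number, but replicate 1 with NTC IR-1 replicate 2 (0.0373). With the number as a block, 1511 rows were called, and 16 in place of 73 in the contrast against the mean of the other groups. That contrast gave 46 calls with RLE size factors, 23 with no filter, 569 with DESeq2, and 7 to 441 with single libraries left out. Under the names of the normalized table, ear was -0.39 (edgeR FDR = 0.0401), D12 was 0.22 (edgeR FDR = 0.279), 1 of the 118 named genes that were called had the same sign, and all 36 list medians of at least 0.2 in size changed sign. Of these 118 genes, 62 lost their call without NTC IR-1 replicate 1, 61 without dENL/AF9-IR replicate 2, and 55 each without NTC IR-1 replicate 2 and dENL/AF9-IR replicate 1. The causes of these differences were not tested. RLE scaling and DESeq2 changed the sign of no list median of that size, but without NTC IR-1 replicate 3 that of UDP-glycosyltransferases was 0.19 in place of -0.24 and that of glutathione S-transferases 0.00 in place of -0.22. The design's promoter motif description was not run.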

Other observations

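Families of transposable element insertions differed in their medians. Of 1194 insertions tested, 79 were higher (6.62%) and 81 lower (6.78%) in the libraries labelled dENL/AF9-IR against NTC IR-1. Of 41 insertions of jockey, a non-LTR retrotransposon, 16 were lower and none higher, with a median log2 fold change of -0.95; between 1 and 8 were lower when single libraries were left out. Of 178 insertions of INE-1, 18 were higher (10.1%, beside 8.67% of all rows) and 2 lower, with a median of 0.52. Between 1 and 23 were higher when single libraries were left out. In NTC IR-2 against NTC IR-1 the medians were -0.96 for jockey and 0.39 for INE-1. For dENL/AF9-IR against NTC IR-2 they were -0.01 and 0.03. Insertions of any family on chromosome 4 had a median of 0.38, and those on all other chromosomes -0.05. The part that chromosome 4 has in the INE-1 median was not tested. Insertions of a family share sequence, so reads may have been assigned to any of several copies.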
